A study of Mus musculus with 39 samples.

Results

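The genes described here encode the proteins that license, open and copy chromosomal DNA in S phase. They are 49 genes taken by symbol from a table of 20333 transcripts (1 per gene) for the roles of their proteins, with earlier results of these data known. All 49 were detected well enough to be tested in ribosome footprints, in RNA and in the ratio of footprints to RNA. The samples are neuroblastomas of TH-MYCN mice, in which a MYCN transgene is expressed in the sympathetic lineage under the tyrosine hydroxylase promoter, and every library carries the genotype label MYCN Amplified and the cell type label Neuroblast. The 20 mice, 5 per group, received a defined control diet, the same diet with difluoromethylornithine (DFMO), a diet without proline and arginine, or that diet with DFMO (called the combination here). DFMO inhibits the enzyme that makes the polyamine putrescine from ornithine. Each sample is a different mouse, named here by the tail of its title, and the labels give no age, sex, dose or length of treatment. Footprints, which are the mRNA fragments protected by translating ribosomes, were sequenced from all 20 tumors and RNA from 19.

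Replication is prepared in G1, when the origin recognition complex (ORC), Cdc6 and Cdt1 load the ring-shaped MCM helicase onto origins, and geminin (Gmnn) later binds Cdt1 so that no origin is licensed again. In S phase Cdc7 kinase, Cdc45, GINS and Mcm10 turn the loaded ring into a moving helicase, polymerase alpha with primase makes the first primers, and polymerases delta and epsilon extend them on the Pcna clamp. Most of these genes are classic targets of E2F transcription factors, which the retinoblastoma protein family restrains, and MYCN-driven neuroblastomas are known as fast-cycling tumors.

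The promoters are shown first because they carry the feature these genes are best known to share. Promoter windows (250 bases before to 50 bases after the RefSeq start) were at hand for 39 of the 49 genes. Letters of the E2F consensus (TTTCCCGC, TTTGGCGC, TTTCGCGC or TTTGGCGG, on either strand, overlapping matches allowed) occurred in 20 of these 39, or 51.3%, against 730 of 27025 genes, or 2.7%. CCAAT occurred in 64.1% against 41.1% of all genes, and CACGTG, the letters that MYC proteins prefer, in 15.4% against 8.09%, again on either strand. A match is only a description of the letters. The genes with E2F letters within the 120 bases before the start are shown by those bases below, 5′ to 3′ on the strand of the gene, from RefSeq on GRCm38.p6. Capitals mark the E2F letters.
Chaf1a, chr17:56040296-56040415, plus strand: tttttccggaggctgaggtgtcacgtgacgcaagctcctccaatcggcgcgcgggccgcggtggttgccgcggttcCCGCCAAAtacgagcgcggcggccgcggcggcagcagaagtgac
Rfc3, chr5:151651209-151651328, minus strand: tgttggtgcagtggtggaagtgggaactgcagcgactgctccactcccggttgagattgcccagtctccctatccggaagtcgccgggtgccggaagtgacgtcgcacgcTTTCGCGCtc
Mcm6, chr1:128359706-128359825, minus strand: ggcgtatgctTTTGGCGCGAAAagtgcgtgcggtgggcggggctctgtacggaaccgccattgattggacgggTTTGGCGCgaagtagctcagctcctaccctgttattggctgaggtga
Gins3, chr8:95633439-95633558, plus strand: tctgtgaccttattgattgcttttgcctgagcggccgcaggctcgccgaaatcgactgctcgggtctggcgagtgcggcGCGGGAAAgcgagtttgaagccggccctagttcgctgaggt
Orc1, chr4:108579334-108579453, plus strand: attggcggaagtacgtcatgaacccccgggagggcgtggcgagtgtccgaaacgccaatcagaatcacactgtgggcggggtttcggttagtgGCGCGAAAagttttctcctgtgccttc
The Mcm6 window holds 3 matches, 2 of which overlap. The other 4 windows hold 1 each.

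Total footprint counts were 2.14 to 4.57 M in control, 3.35 to 8.23 M in diet, 5.13 to 9.04 M in DFMO and 4.7 to 12.4 M in combination libraries. Total RNA counts were 10 to 51.5 M. Several libraries stood apart. RNA of control mice CD_5696, CD_5778 and CD_5781 and of diet mouse Proargdrop_5828 covered only 8806 to 13387 transcripts against at least 14977 in every other RNA library, so 3 of the 4 control RNA libraries are low-complexity ones and mouse CD_5812 is the other. Values without them have CD_5812 as the only control RNA, and its spread is then assumed to be that of the other groups, so a p against control in such a fit rests on 1 control tumor. RNA of DFMO mice CD_DFMO_5823 and CD_DFMO_135 matched the footprints of its own mouse poorly, which ranked 10 and 8 among the 20 footprint libraries by correlation over genes (r = -0.074 and -0.026), and those of low-complexity controls CD_5696 and CD_5781 ranked 9 and 8 (r = 0.119 and 0.077). RNA and footprints were paired by the mouse named in the labels, on which the values with the mouse as a block rest, and whether the labels of these mice are right was not tested. Over the 49 genes alone the correlation was low in most mice, from -0.291 in CD_DFMO_5806 to 0.643 in CD_DFMO_5747. It was -0.158 in combination mouse Proargdrop_DFMO_5732, whose own footprints ranked 5 over genes (r = 0.177). The main RNA and efficiency results are given also without the 4 low-complexity libraries. In footprints, combination mouse Proargdrop_DFMO_5732 was the highest of its group in 46 of the 49 genes and mouse Proargdrop_DFMO_5805 the lowest in 41, and DFMO mouse CD_DFMO_5747 was the lowest of its group in 34.

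The 11 sympathetic neuroblast markers were all detected in every group, with a summed footprint level of 1790 to 2710 CPM (counts scaled to a common, TMM-adjusted library total), as the cell type label states. In the combination 1 of the 11 was called higher and 3 lower against control. Th, which encodes tyrosine hydroxylase of catecholamine synthesis, was at 256 to 604 CPM in controls and 604 to 961 in the combination. Mycn footprints were 293 to 406 CPM in control tumors and 260 to 362 CPM in the combination. Other cell types moved with treatment. Macrophage markers summed to 360 to 471 CPM in controls and 252 to 340 CPM in the combination, where 6 of 8 were called lower, and endothelial markers to 120 to 203 and 77.6 to 148 CPM, with 3 of 8 called lower. With DFMO the same counts were called, at 254 to 331 CPM for macrophage and 39.2 to 130 CPM for endothelial markers. Pancreatic acinar markers summed to 46 to 1490 CPM in controls, 8.17 to 53.5 on the diet, 10.1 to 51.9 with DFMO and 242 to 2470 in the combination, with the highest sum in mouse Proargdrop_DFMO_5732. Adrenal cortex markers summed to 11.2 to 102 CPM in controls and 64.9 to 207 CPM in the combination, with 2 of 5 tested markers called higher. Erythroid markers summed to 3660 to 13400 CPM in controls, 13300 to 45000 on the diet, 785 to 1910 with DFMO, where Klf1 was at 0, and 2650 to 13200 in the combination. Fibroblast and pericyte markers summed to 616 to 3160 CPM over all groups, T and NK cell markers to 4.43 to 14.7, B and plasma cell markers to 1.03 to 6.14, and Schwann cell markers to 2.59 to 67.2 with the highest sum in DFMO mouse CD_DFMO_5747. The part of these cells in the results below was not tested. In bulk tumors, fewer cycling cells and less RNA per cell cannot be told apart.

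In control tumors the 49 genes took 0.549 to 0.588% of all footprint counts. Levels between genes are compared per length, as the authors' RPKM (counts per kilobase of coding sequence, scaled to the total of the library). Pcna, the sliding clamp, had the highest footprint level at 661 ± 52.5 RPKM (SD, n = 5), followed by Dut, which keeps uracil out of DNA, at 562 ± 22.3 and Mcm7 at 294 ± 18.8. Orc1, the large origin-binding ATPase of ORC, was lowest at 3.75 ± 1.27 RPKM, with the GINS subunit Gins3 at 6.36 ± 2.21 and the polymerase epsilon subunit Pole2 at 7.3 ± 2.67. The MCM ring contains its 6 subunits in equal number, but its footprints were not equal: Mcm7 took 37.6 ± 0.873% of the complex (SD, n = 5) and Mcm4 only 6.22 ± 0.403%.

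**Figure D1:**
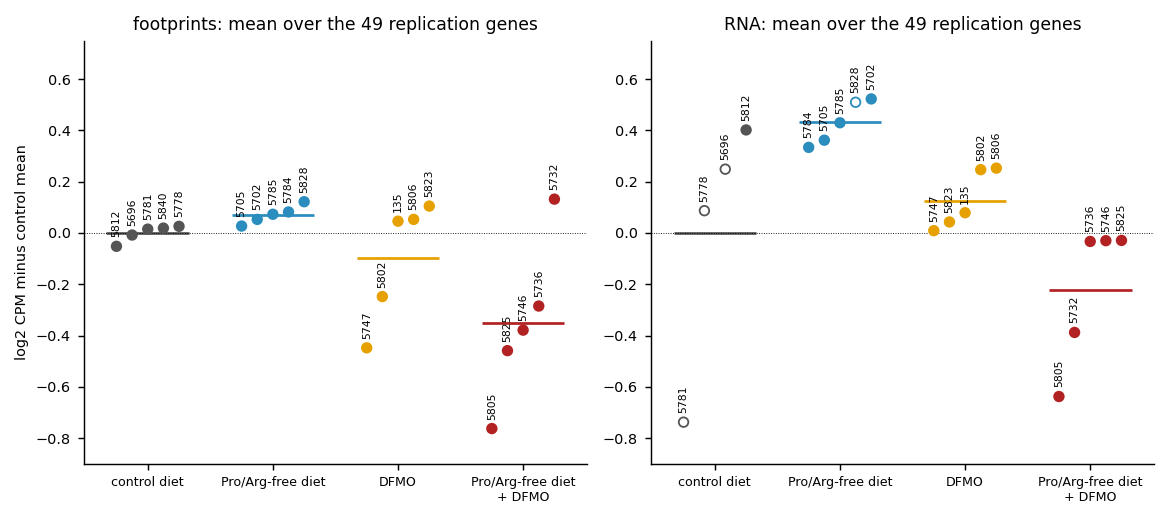
Mean over the 49 genes of log2 CPM minus the control mean, 1 point per tumor with its mouse number, for footprints (left) and RNA (right). Open circles are the 4 low-complexity RNA libraries and horizontal lines the group means. In footprints 4 of the 5 combination tumors lie between -0.763 and -0.285 and mouse Proargdrop_DFMO_5732 at 0.132, while controls stay within -0.052 to 0.026.

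Footprints of many replication genes were lower in the combination than in control tumors. The mean departure of the 49 genes from the control mean was 0 with an SD of 0.032 over the 5 control tumors. It was 0.071 ± 0.035 on the diet, -0.098 ± 0.24 with DFMO alone and -0.351 ± 0.324 in the combination (log2 CPM, SD, n = 5). All 5 diet tumors lay just above every control (0.027 to 0.122), DFMO tumors split into mice CD_DFMO_5747 and CD_DFMO_5802 at -0.448 and -0.248 and 3 mice at 0.046 to 0.105, and 4 of 5 combination tumors lay below every control. The share of footprint counts spent on these genes was 0.532 to 0.56% on the diet, 0.459 to 0.555% with DFMO and 0.36 to 0.581% in the combination.

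In the test by edgeR's quasi-likelihood F test, with p values adjusted over all 12095 genes, 19 of the 49 genes fell in the combination against control and 1 rose. Of all genes tested 15.5% fell and 16.7% rose. The median change of the 49 genes was -0.36 on the log2 scale against 0.02 for all genes, and 44 of 49 changes were negative. Against the diet alone 24 of 49 genes fell and 0 rose, with 14% of all genes lower and 14.8% higher. Here the median was -0.40, and 47 of 49 changes were negative. Without mouse Proargdrop_DFMO_5732, the only combination tumor above the control mean, 33 genes fell against control (17.9% of all genes) and 38 against the diet (17.2%). Without mouse Proargdrop_DFMO_5805, the lowest tumor, 16 fell against control (13% of all genes) and 13 against the diet (10.4%). Both mice are extremes of their group in these very genes, so that leaving either out moves the counts in a known direction.

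**Figure D2:**
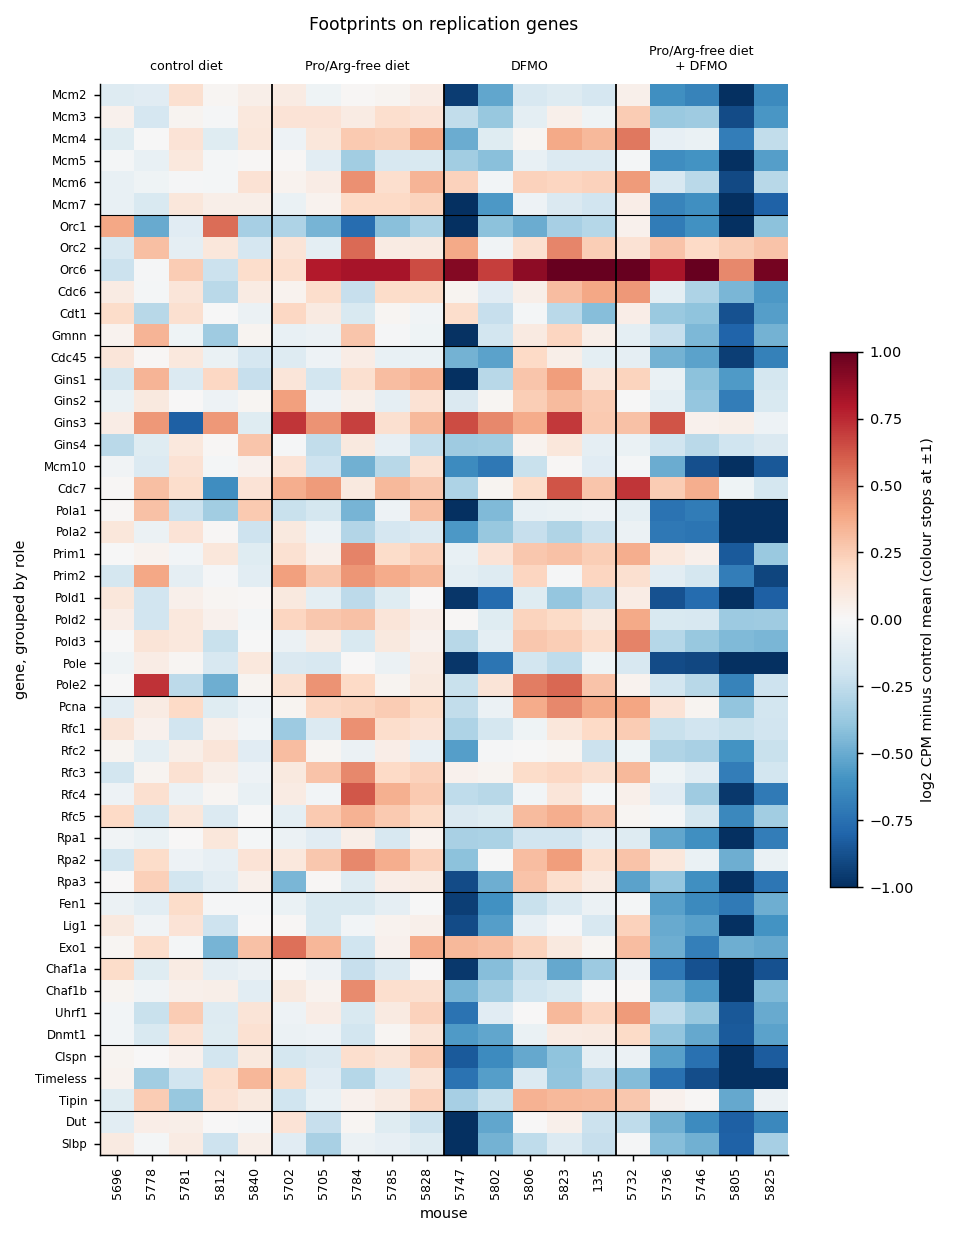
Footprint log2 CPM of each of the 49 genes (rows, grouped by role) in each of the 20 tumors (columns, by group), as the difference from the control mean, with blue lower and red higher. The combination columns are blue in most rows except for mouse Proargdrop_DFMO_5732, and Orc6 is red in every column of DFMO and of the combination.

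The mouse order in the values below is CD_5696, CD_5778, CD_5781, CD_5812 and CD_5840 for control, Proargdrop_5702, Proargdrop_5705, Proargdrop_5784, Proargdrop_5785 and Proargdrop_5828 for the diet, CD_DFMO_5747, CD_DFMO_5802, CD_DFMO_5806, CD_DFMO_5823 and CD_DFMO_135 for DFMO, and Proargdrop_DFMO_5732, Proargdrop_DFMO_5736, Proargdrop_DFMO_5746, Proargdrop_DFMO_5805 and Proargdrop_DFMO_5825 for the combination. Control RNA lacks mouse CD_5840. Changes are log2 values ± SE, and the comparisons against control share the same 5 control tumors. Values of single tumors are footprint CPM unless RNA is named.

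Among the 6 MCM helicase genes, 3 fell in footprints of the combination against control and 4 against the diet (15.5% and 14% of all genes). Mcm2 read 311, 314, 381, 344 and 355 CPM in control tumors, 361, 330, 342, 346 and 358 on the diet, 176, 236, 304, 311 and 303 with DFMO, and 352, 222, 214, 154 and 219 in the combination. Mouse Proargdrop_DFMO_5732 sat among the controls and the other 4 combination tumors below all of them. Mcm2 fell by 0.55 ± 0.16 against control (adjusted p = 0.0131) and by 0.58 ± 0.16 against the diet (adjusted p = 0.011). Mcm7, the subunit with the highest footprint level, read 600, 567, 683, 656 and 658 CPM in controls and 660, 399, 412, 269 and 361 in the combination. It fell by 0.59 ± 0.18 against control (adjusted p = 0.0174), and without mouse Proargdrop_DFMO_5805 this change was -0.47 with an adjusted p of 0.0503. Against the diet, where tumors read 602, 648, 724, 724 and 738 CPM, Mcm7 fell by 0.71 ± 0.18 (adjusted p = 0.00649). Mcm5 went from 280, 269, 306, 280 and 286 CPM to 280, 184, 187, 129 and 193 in the combination, and again mouse Proargdrop_DFMO_5732 alone overlapped with the controls. Its change was -0.54 ± 0.14 (adjusted p = 0.00391).

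Mcm3 read 224, 194, 223, 216 and 235 CPM in controls and 261, 168, 171, 117 and 146 in the combination, a change of -0.34 ± 0.14 that missed the threshold (adjusted p = 0.0679). Against the diet, with 239, 239, 231, 245 and 240 CPM, it fell by 0.47 ± 0.14 (adjusted p = 0.0154). Both remaining subunits did not pass in either comparison. Mcm4 read 115 to 137 CPM, with a median of 124, in controls and 180, 118, 119, 77.2 and 105 in the combination (-0.06 ± 0.17, adjusted p = 0.814). Mcm6 read 218, 222, 227, 226 and 253 CPM in controls and 308, 205, 190, 123 and 188 in the combination (-0.18 ± 0.15, adjusted p = 0.393). The subunits therefore kept unequal proportions, narrower than in controls in the combination and in part with DFMO alone. The share of Mcm7 in the complex was 34.1 ± 1.07% in the combination against 37.6 ± 0.873% in controls. That of Mcm4 was 8.17 ± 0.198% against 6.22 ± 0.403%, and that of Mcm6 14.4 ± 0.664% against 12 ± 0.631%. With DFMO alone the shares of Mcm7, Mcm4 and Mcm6 were 33.5 ± 3.73%, 7.38 ± 0.883% and 15.9 ± 2.68%. On the diet they were 38.5 ± 1.78%, 6.7 ± 0.47% and 13.1 ± 1.22% (SD, n = 5 each). The ratio of the most to the least abundant subunit, in RPKM, was 5.46 to 6.86 in control tumors, 5.43 to 5.98 on the diet, 4.22 to 5.78 with DFMO and 4.04 to 4.4 in the combination. These ratios are taken within each library, do not depend on scaling between libraries, and did not overlap between control and combination, mouse Proargdrop_DFMO_5732 included. They were chosen for display after their values were seen and were not tested. In the other complexes shown, the ranges of control and combination overlapped. Polymerase alpha-primase went the other way, at 3.25 to 5.86 in controls and 5.1 to 7.67 in the combination. The clamp loader was at 4.31 to 5.35 and 3.23 to 5.25. Replication protein A was at 2.93 to 4.13 and 2.52 to 3.67, and GINS at 5.77 to 16.5 and 4.44 to 7.65.

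**Figure D3:**
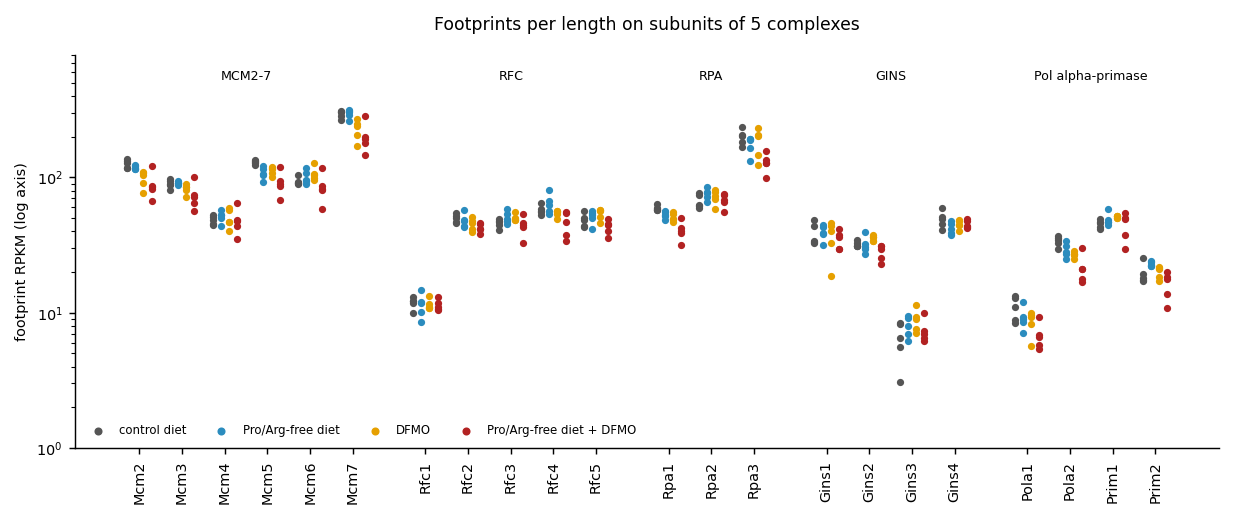
Footprint RPKM (log axis) of the subunits of 5 complexes, 1 point per tumor, in the 4 groups. The MCM2-7 subunits span a top-to-bottom ratio of 5.46 to 6.86 in control tumors, 4.22 to 5.78 with DFMO and 4.04 to 4.4 in the combination. In the other complexes the ratios of control and combination tumors overlap.

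Among the genes of origin recognition and loading, Orc6 was the gene that rose. Orc6, a small ORC subunit (GRCm38 chr8:85299689-85308278, plus strand), read 10.1, 11.7, 14.1, 10.1 and 13.3 CPM in control tumors, 13.2, 20.6, 21.1, 21.1 and 18.7 on the diet, 22.4, 19.1, 22.1, 25.9 and 24.2 with DFMO, and 25.4, 21, 24.6, 16.5 and 23.1 in the combination. All DFMO and all combination tumors lay above all controls, and diet mouse Proargdrop_5702 was the only diet tumor inside the control range. Orc6 rose by 0.94 ± 0.16 with DFMO (adjusted p = 0.000545) and by 0.90 ± 0.16 in the combination (adjusted p = 0.000209). On the diet its change of 0.68 ± 0.16 had an unadjusted p below 0.05 but an adjusted p of 0.147. The other ORC members did not pass. Orc2 changed by 0.21 ± 0.14 in the combination (adjusted p = 0.234), and Orc1, at 4.23 to 13.4 CPM in these 2 groups, by -0.56 ± 0.26 (adjusted p = 0.101).

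Cdt1, which brings the MCM ring to the origin, fell slightly in the combination. It read 132, 95.8, 130, 116 and 111 CPM in controls and 122, 89.6, 87.6, 63.4 and 79.3 in the combination, where mouse Proargdrop_DFMO_5732 lay within the control range and the other 4 tumors below it. The change was -0.40 ± 0.14 against control (adjusted p = 0.0342) and -0.43 ± 0.14 against the diet (adjusted p = 0.0256). It was lost against control when any of mice CD_5696, CD_5781, CD_5812, Proargdrop_DFMO_5746, Proargdrop_DFMO_5805 or Proargdrop_DFMO_5825 was left out (-0.40 to -0.30, adjusted p up to 0.104). Gmnn, the inhibitor of Cdt1, read 53.1, 65.6, 50.1, 40.3 and 52.7 CPM in controls, 49, 49.6, 62.9, 51.3 and 50.3 on the diet, and 48.3, 44.1, 37.8, 29.6 and 37.1 in the combination. All combination tumors lay below all diet tumors, but neither change passed (-0.41 ± 0.18 against control, adjusted p = 0.078, and -0.41 ± 0.18 against the diet, adjusted p = 0.0804). Cdc6, the ATPase that works with Cdt1, read 37.5, 35, 38.5, 29.2 and 37.6 CPM in controls and 48, 33.2, 28.5, 25.7 and 23.7 in the combination, and its change of -0.16 ± 0.16 did not pass (adjusted p = 0.477).

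Of the 7 genes that activate the helicase, 2 fell in the combination against control, where 15.5% of all genes did. Cdc45, which joins MCM and GINS in the moving helicase, read 88.8, 82.5, 87.8, 78 and 72.8 CPM in controls and 77, 58.7, 56.4, 42.3 and 51.1 in the combination, a fall of 0.52 ± 0.14 (adjusted p = 0.0078). Mcm10, which helps the helicase start, read 64.5, 60.2, 73.3, 65.2 and 68.1 CPM in controls and 65.3, 46.7, 35.8, 28.2 and 36.5 in the combination, a fall of 0.64 ± 0.19 (adjusted p = 0.0121). In both, only mouse Proargdrop_DFMO_5732 reached the control range. Both also fell against the diet (Cdc45 by 0.47 ± 0.14 with adjusted p = 0.0158, Mcm10 by 0.52 ± 0.18 with adjusted p = 0.0357). The 4 GINS genes and the kinase gene Cdc7 did not pass in either comparison, with changes against control from -0.25 for Gins2 to 0.23 for Cdc7.

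The polymerases and primase differed by subunit. Against control, 4 of 9 genes fell, where 15.5% of all genes did. These were the catalytic subunits of polymerases alpha (Pola1), delta (Pold1) and epsilon (Pole) together with Pola2, which anchors polymerase alpha to primase. Pole read 119 to 143 CPM in controls, 121, 119, 134, 127 and 141 on the diet, 67.5, 80.2, 117, 111 and 129 with DFMO, and 119, 71.4, 70.5, 55.4 and 66.3 in the combination. Mouse Proargdrop_DFMO_5732 equalled the lowest control to the digits printed, and the other combination tumors were at 55.4 to 71.4 CPM. Pole fell by 0.80 ± 0.17 against control (adjusted p = 0.00147) and by 0.74 ± 0.17 against the diet (adjusted p = 0.00301). Pola2 read 65.5, 58.3, 66.7, 61.2 and 52.4 CPM in controls, 40.6, 46.4, 51.5, 49.1 and 52.2 with DFMO, and 58.1, 36.8, 36.4, 26 and 29.4 in the combination. DFMO tumors lay below all controls and 4 combination tumors lay lower still. Pola2 fell by 0.70 ± 0.15 in the combination (adjusted p = 0.00161), while its change with DFMO was -0.34 ± 0.15 (adjusted p = 0.123).

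Pola1 fell by 0.73 ± 0.21 and Pold1 by 0.68 ± 0.20 (adjusted p = 0.0132 and 0.0122). The primase genes Prim1 and Prim2, the delta subunits Pold2 and Pold3 and the epsilon subunit Pole2 did not pass against control, at -0.08 ± 0.15 for Prim1, -0.31 ± 0.16 for Prim2, -0.10 ± 0.12 for Pold2, -0.18 ± 0.17 for Pold3 and -0.34 ± 0.21 for Pole2. Prim2 fell against the diet, by 0.65 ± 0.16 (adjusted p = 0.00391), from 38.8, 35.1, 39.5, 37.7 and 36.5 CPM to 32.6, 27, 25.7, 17.8 and 15.2, and these groups did not overlap. Within the polymerase alpha-primase complex the share of Pola2 RPKM was 31 ± 2.77% in controls and 24.2 ± 2.01% in the combination, and that of Prim1 41.4 ± 1.75% and 49.8 ± 3.46%. With DFMO alone they were 25.1 ± 0.528% and 48.2 ± 1.28%, and on the diet 26.4 ± 3.18% and 44.5 ± 3.86% (SD, n = 5 each).

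**Figure D4:**
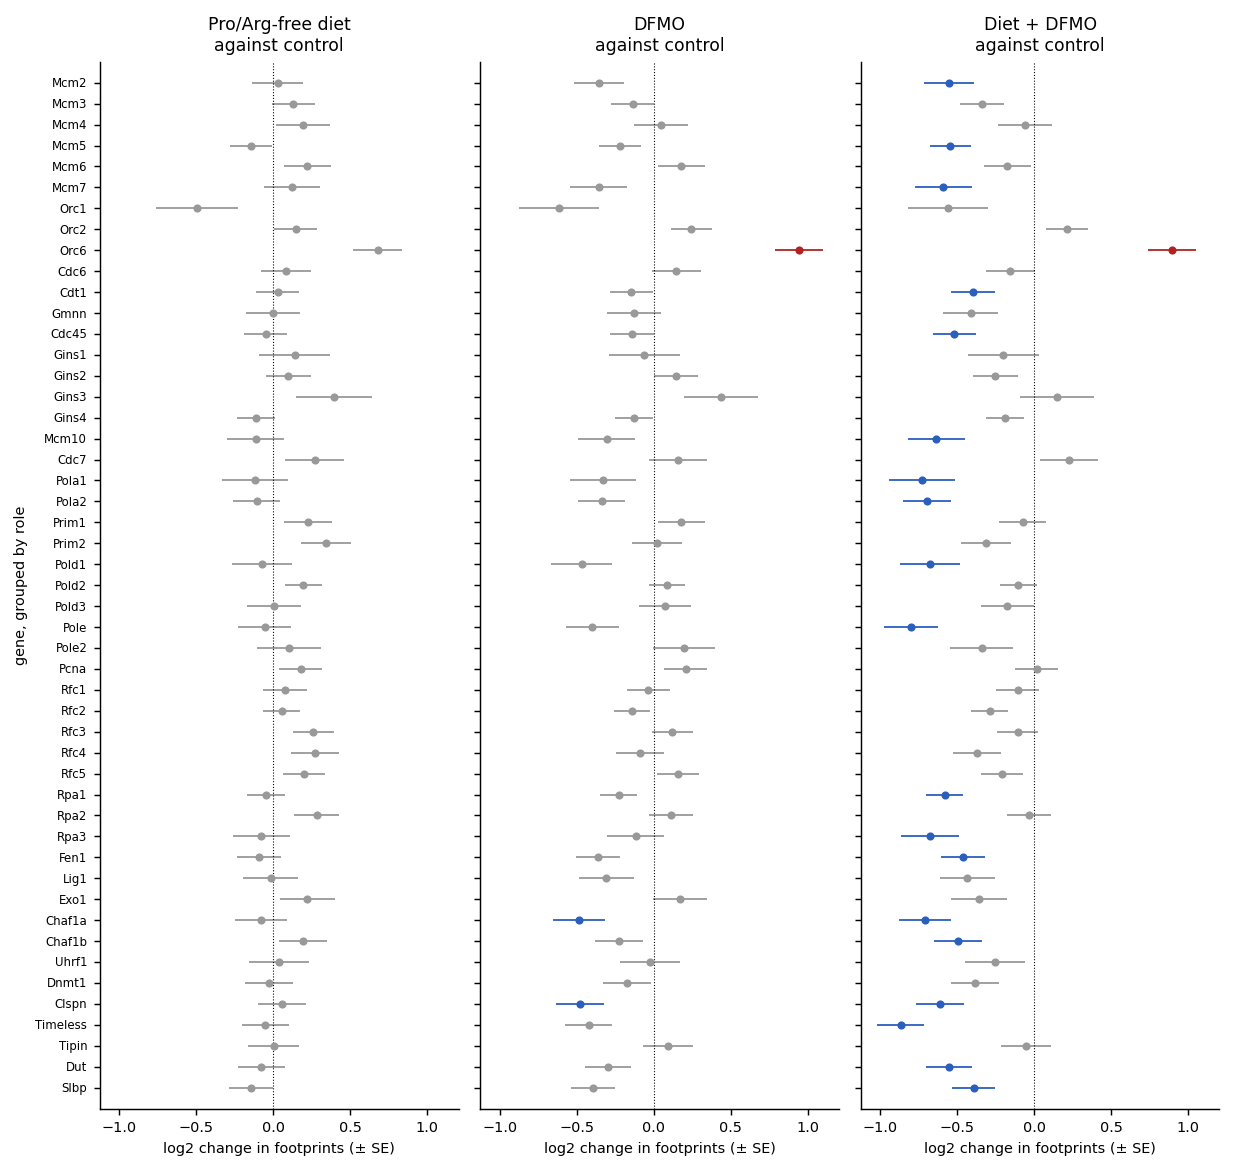
Change of footprints (log2, points, with bars of 1 SE) for each of the 49 genes, grouped by role, for the diet, DFMO and the combination, each against the same 5 control tumors. Blue points were called lower, red points higher and grey points neither by edgeR. The combination has 19 blue points and 1 red (Orc6), DFMO 2 blue (Clspn and Chaf1a) and 1 red (Orc6), and the diet none.

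No gene of the clamp and its loader passed against control. Pcna read 478, 545, 591, 474 and 498 CPM in control tumors, 526, 594, 602, 615 and 590 on the diet, 435, 496, 667, 718 and 672 with DFMO, and 677, 566, 526, 392 and 455 in the combination. The groups overlapped, and the change in the combination was 0.02 ± 0.14 (adjusted p = 0.942). None of the 5 genes of the loader, replication factor C, passed against control, with changes from -0.37 for Rfc4 to -0.11 for Rfc1 (Rfc4 adjusted p = 0.0672). Against the diet 4 of them fell, where 14% of all genes did. These were the small subunits Rfc2, Rfc3, Rfc4 and Rfc5, by 0.34 to 0.64. Rfc4 went from 66.4, 61.6, 96.3, 80.1 and 75.1 CPM to 65, 57.8, 48.8, 31.9 and 38.3 (-0.64 ± 0.15, adjusted p = 0.00323).

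Replication protein A coats single-stranded DNA at the fork. Rpa1, its large DNA-binding subunit, read 108, 105, 110, 119 and 109 CPM in controls, 106, 102, 114, 98.7 and 113 on the diet, 87.6, 88.1, 96.2, 96.6 and 102 with DFMO, and 101, 76.6, 71.7, 50.8 and 67.9 in the combination. All 10 DFMO-treated tumors lay below all controls. Rpa1 fell by 0.58 ± 0.12 in the combination (adjusted p = 0.000993), but its change of -0.23 ± 0.12 with DFMO alone did not pass (adjusted p = 0.192). Rpa3, the small subunit, read 72.3, 85, 63.4, 66.9 and 74.6 CPM in controls and 49.7, 55, 47.1, 31 and 43.6 in the combination, without overlap, a fall of 0.68 ± 0.19 (adjusted p = 0.00857). Rpa2, the middle subunit, changed by -0.03 ± 0.15 (adjusted p = 0.88). Its share of the RPA footprints was 28.6 ± 1.2% in the combination against 20.5 ± 1.27% in controls. With the single treatments it lay between these, at 25 ± 2.03% on the diet and 23.8 ± 1.77% with DFMO (SD, n = 5 each).

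On the lagging strand, the flap nuclease Fen1 fell by 0.46 ± 0.14 against control (adjusted p = 0.0162), from 84.8 to 104 CPM in controls to 55.9 to 90.1 in the combination. DNA ligase 1 (Lig1) at -0.44 ± 0.18 (adjusted p = 0.0653) and the exonuclease Exo1 at -0.36 ± 0.18 (adjusted p = 0.127) did not pass. Exo1 fell against the diet by 0.58 ± 0.17 (adjusted p = 0.0159).

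The chromatin assembly factor CAF-1, which places histones behind the fork, fell in both of its subunits measured here. Chaf1a read 75.5, 61.1, 70.4, 62.5 and 63.9 CPM in controls, 66.4, 64.2, 56.7, 60.4 and 66.8 on the diet, 33.9, 49.5, 56.3, 46.6 and 51.6 with DFMO, and 64.1, 40.4, 36.2, 26.3 and 36.1 in the combination. All DFMO tumors were below all controls, and in the combination only mouse Proargdrop_DFMO_5732 was not. Chaf1a fell by 0.71 ± 0.17 in the combination (adjusted p = 0.00276) and by 0.49 ± 0.17 with DFMO (adjusted p = 0.0456). The DFMO call was lost in 19 of 26 alternative fits, with an adjusted p of up to 0.113. Chaf1b read 79.1, 75.7, 102, 82.9 and 82.3 CPM on the diet and 74.4, 53.3, 49.4, 29.6 and 54.3 in the combination, without overlap, and fell by 0.69 ± 0.15 (adjusted p = 0.00209). Against controls, at 68.6 to 77 CPM, it fell by 0.50 ± 0.16 (adjusted p = 0.0171).

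Uhrf1, which guides DNA methylation to newly copied strands, and the methyltransferase Dnmt1 did not pass in either comparison. Uhrf1 read 277, 242, 336, 258 and 309 CPM in controls and 380, 237, 217, 157 and 199 in the combination, where mouse Proargdrop_DFMO_5732 was above all controls (-0.26 ± 0.19, adjusted p = 0.327). Dnmt1 changed by -0.38 ± 0.16 (adjusted p = 0.0629).

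Of the fork protection genes, Timeless had the smallest p among the genes that fell. Timeless (chr10:128232065-128252941, plus strand), which with Tipin links the helicase to the polymerases, read 79.7, 60.9, 67.9, 87 and 97.6 CPM in controls, 88.7, 71.4, 63.5, 70.4 and 84.6 on the diet, 46.3, 52.7, 70.6, 58.8 and 64.7 with DFMO, and 57.3, 46, 41.8, 31.9 and 37.9 in the combination. Combination tumors lay below all controls and all diet tumors, mouse Proargdrop_DFMO_5732 included. Timeless fell by 0.87 ± 0.15 against control (adjusted p = 0.000239) and by 0.82 ± 0.15 against the diet (adjusted p = 0.000552). Claspin (Clspn), which relays the replication checkpoint, read 70.5, 69.3, 71.3, 60.8 and 74 CPM in controls, 61, 62.6, 77.5, 75.4 and 82.1 on the diet, 38.4, 44.5, 48.2, 52.1 and 64.7 with DFMO, and 66.1, 47.4, 40.9, 32.5 and 38.7 in the combination. Only DFMO mouse CD_DFMO_135 and combination mouse Proargdrop_DFMO_5732 reached the control range. Clspn fell by 0.61 ± 0.16 in the combination (adjusted p = 0.00475) and by 0.48 ± 0.16 with DFMO (adjusted p = 0.0352), a call lost in 8 of 26 alternative fits (adjusted p up to 0.0891). Tipin (chr9:64281603-64305424, plus strand), the partner of Timeless, did not pass, at 22.9, 29.8, 19.1, 27.6 and 26.6 CPM in controls and 30.1, 25.6, 25, 17.4 and 23.9 in the combination (-0.05 ± 0.17).

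Dut read 254, 286, 285, 274 and 271 CPM in controls, 301, 232, 277, 252 and 235 on the diet, and 229, 196, 176, 155 and 175 in the combination, which lay below both other groups in every tumor. It fell by 0.55 ± 0.15 against control (adjusted p = 0.00791). Slbp, the protein that binds the ends of histone mRNAs, read 120, 112, 120, 97.8 and 118 CPM in controls and 112, 84.4, 80.9, 64.4 and 89.8 in the combination. Its fall of 0.39 ± 0.14 against control (adjusted p = 0.0365) was lost when any of 8 mice was left out, when footprints were thinned to the shallowest library (-0.28, adjusted p = 0.204), and was -0.30 with an adjusted p of 0.109 without mouse Proargdrop_DFMO_5805.

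The single treatments moved few of these genes in footprints. With DFMO alone 2 of 49 fell (8.84% of all genes) and 1 rose (9.24%), the 3 named above, with a median change of -0.13 against 0.02 for all genes. Without combination mouse Proargdrop_DFMO_5732, 9 were called. That mouse enters this comparison only through the scaling, the shared estimate of spread and the set of genes tested. The share of all genes in that fit is not given here, so the count is not read as a result about the 49 genes. On the diet alone 0 of 49 were called, as were 0% of all 12095 genes. At an unadjusted p below 0.05 there were 2, Orc6 and Prim2, and DESeq2 called 1 and limma 0. Their median change was 0.06. Between DFMO and the diet, Clspn was the single gene to pass, lower with DFMO by 0.53 ± 0.15 (adjusted p = 0.0282, with 5.28% of all genes lower and 5.6% higher), and this was lost without any of mice Proargdrop_5784, Proargdrop_5785, Proargdrop_5828, CD_DFMO_5747 or CD_DFMO_5802.

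The combination was then set against DFMO alone. In footprints 0 of 49 genes passed by edgeR, DESeq2 or limma (0.951% of all genes lower and 2.27% higher by edgeR), although 46 of 49 changes were negative with a median of -0.23, and 13 genes had an unadjusted p below 0.05, all lower (2210 of all 12095 genes in either direction). This count rested on single tumors. Without combination mouse Proargdrop_DFMO_5732 it was 19, all lower, with 4.22% of all genes lower, and without DFMO mouse CD_DFMO_5747 it was 6, all lower, with 1.48% of all genes lower. The interaction, which asks whether the combination differs from the sum of both treatments, gave 0 of 49 by the same 3 tools (0.347% of all genes higher and 0.0248% lower by edgeR), 14 at an unadjusted p below 0.05, all negative (1608 of all genes in either direction), and 5 without mouse Proargdrop_DFMO_5732 (0.639% of all genes lower). A difference in footprints of these genes between the combination and DFMO alone was thus called or not depending on which tumors were included.

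RNA of the same genes was also lower in the combination than on the diet. In this comparison, 25 of 49 genes fell and 0 rose, with 8.68% of the 14280 genes tested lower and 9.03% higher. The median change was -0.67 against 0.01 for all genes. Without the 4 low-complexity libraries 34 fell, with 17% of all genes lower and a median of -0.62. Of the 24 genes that fell in footprints and the 25 that fell in RNA here, 13 fell in both, 11 in footprints only and 12 in RNA only by these calls, and the difference between assays is tested below as efficiency. The 13 were Mcm7, Mcm10, Cdc45, Pola2, Pold1, Pole, Rfc2, Rfc3, Chaf1a, Chaf1b, Dut, Exo1 and Timeless. Footprints and RNA of a mouse came from the same extract. Markers of other cells moved in RNA too. Erythroid markers summed to 16600 to 279000 CPM on the diet, the highest in low-complexity mouse Proargdrop_5828, and to 2560 to 27800 in the combination, with 5 of 7 tested markers called lower, and pancreatic acinar markers to 12.9 to 43.6 and 50.5 to 675 CPM, with 6 of 6 called higher. Their part in the RNA results was not tested.

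**Figure D5:**
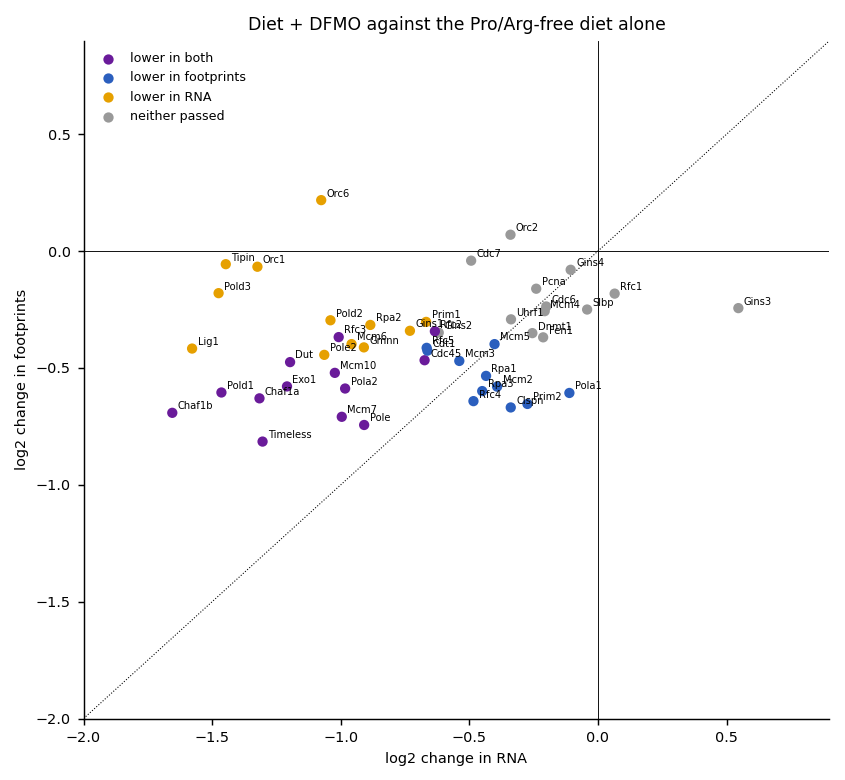
Change in RNA (horizontal) against change in footprints (vertical) in the combination relative to the diet, both log2, 1 point per gene for the 49 genes. Purple points were called lower in both assays (13), blue in footprints only (11), orange in RNA only (12) and grey in neither (13).

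Timeless RNA read 83.1, 72.5, 93.6, 88.3 and 121 CPM on the diet and 27.5, 50.9, 44.6, 24.5 and 38 in the combination, without overlap, and fell by 1.30 ± 0.30 (adjusted p = 0.0048). With the low-complexity libraries removed, its change was -1.20 (adjusted p = 8.37e-05). Chaf1a RNA read 106, 90.7, 88.4, 91.9 and 176 CPM on the diet and 33.4, 54.1, 55, 26.3 and 53.1 in the combination, and fell by 1.32 ± 0.25 (adjusted p = 0.00115, and -1.10 with adjusted p = 0.000465 without the 4 libraries). Diet mouse Proargdrop_5828, a low-complexity library, gave the highest value of both. Mcm6, whose footprints did not pass against the diet, read 245, 194, 261, 278 and 234 CPM in diet RNA and 99.1, 156, 150, 81.3 and 138 in combination RNA, again without overlap. Mcm6 RNA fell by 0.96 ± 0.25 (adjusted p = 0.012), and by 0.98 without the 4 libraries (adjusted p = 0.000375). In combination mouse Proargdrop_DFMO_5732, whose footprints of these genes were the highest of its group, RNA was not the highest for any of the 49 genes.

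Pold3, Pold2 and Tipin fell in RNA without a called change in footprints. Pold3, an accessory subunit of polymerase delta, read 31.6, 26.2, 40.1, 41.9 and 73.7 CPM in diet RNA and 13.6, 16, 16.9, 13 and 17.1 in combination RNA, and fell by 1.48 ± 0.25 (adjusted p = 0.000526). Pold2, the subunit that bridges polymerase delta, read 312, 244, 343, 317 and 352 CPM and 142, 164, 157, 110 and 188, a fall of 1.04 ± 0.18 (adjusted p = 0.000699). Tipin read 175, 148, 177, 219 and 473 CPM and 75.8, 95.1, 84.7, 68.4 and 113, a fall of 1.45 ± 0.27 (adjusted p = 0.00123). In none of these 3 did the groups overlap. Leaving out the low-complexity libraries, their changes were -1.20, -1.01 and -1.06 (adjusted p = 2.35e-05, 9.99e-05 and 5.42e-05). Among the other genes, Exo1 RNA fell by 1.21 ± 0.25 (adjusted p = 0.00212), Mcm7 RNA by 1.00 ± 0.23 (adjusted p = 0.00621) and Gmnn RNA by 0.91 ± 0.29 (adjusted p = 0.035). Without the 4 libraries these were -0.94, -0.87 and -0.60 (adjusted p = 0.00042, 0.00299 and 0.0166). The Gmnn call was lost in 11 of 27 alternative fits.

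Against control, RNA results rest on few libraries. After TMM scaling the median log2 change of all genes was 0.28 for DFMO, 0.31 for the combination and 0.23 for the diet, and the changes here are to be read against these shifts. In the combination 18 of 49 genes fell and 1 rose in RNA (17.7% of all genes lower, 23.1% higher), with 4 higher and 18 lower under RLE scaling, 6 and 19 by DESeq2, and 11 higher and 7 lower by limma on log2 RPKM. Without the low-complexity libraries, 16 fell and 0 rose (6.97% of all genes lower), with mouse CD_5812 then the only control. With DFMO 13 fell and 7 rose (17.5% lower and 21.9% higher among all genes). By limma on log2 RPKM 26 rose and 3 fell, and without the low-complexity libraries 1 rose and 8 fell. On the diet 2 rose, Cdt1 and Mcm5 (2.27% of all genes higher and 1.13% lower), and 0 did without the low-complexity libraries. Leaving out only low-complexity diet mouse Proargdrop_5828 gave 9 higher and 9 lower (14.4% of all genes lower). Leaving out only control mouse CD_5812 gave 10 higher and 3 lower. Counts in this paragraph without a share of all genes beside them are not read as results about the 49 genes.

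Some genes kept 1 direction through these alternatives. Tipin RNA read 311, 326, 413 and 224 CPM in controls, 68.5, 76.9, 83.9, 68.9 and 69.2 with DFMO and 68.4 to 113 in the combination, all below all controls. Tipin RNA fell by 2.11 ± 0.29 with DFMO (adjusted p = 7.38e-05) and by 1.87 ± 0.29 in the combination (adjusted p = 0.000187), and its changes from the 1 control left without the low-complexity libraries were -1.61 and -1.38 (adjusted p = 0.000486 and 0.00152). Gmnn RNA read 196, 297, 391 and 153 CPM in controls, 51.5, 75.4, 72.9, 55 and 56.1 with DFMO, and 55.1, 70, 66.6, 44.1 and 88 in the combination, and fell by 2.06 ± 0.31 and 2.00 ± 0.31 (adjusted p = 0.00018 and 0.000193). Against that 1 control they were -1.30 and -1.26 (adjusted p = 0.00564 and 0.00715). Both calls of both genes were past the threshold in 27 of 27 alternative fits.

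Other calls against control were kept or lost without the low-complexity libraries, a fit in which mouse CD_5812 is the only control. Rfc3 and Rfc4 RNA fell by 1.43 ± 0.27 and 1.02 ± 0.20 in the combination against control (adjusted p = 0.000762 and 0.000744). Without the 4 libraries Rfc3 was at -0.82 (adjusted p = 0.0193) and Rfc4 at -0.53 (adjusted p = 0.0987). Chaf1b RNA fell by 2.21 ± 0.43 (adjusted p = 0.000877), from 291, 445, 887 and 167 CPM in controls, the highest in low-complexity mouse CD_5781, to a median of 94.4 in the combination, where no tumor reached any control. Without the 4 libraries it was at -0.81 (adjusted p = 0.149). With DFMO, Mcm5, Mcm6, Rpa1 and Uhrf1 RNA rose by 1.20 ± 0.24, 0.85 ± 0.27, 1.66 ± 0.46 and 1.65 ± 0.53 (adjusted p = 0.00103, 0.0173, 0.00825 and 0.0188), and none of these passed without the 4 libraries (0.58, 0.23, 0.46 and 0.78, adjusted p of 0.12 to 0.629). Rpa3, Dut and Pold3 RNA fell with DFMO by 1.38 ± 0.27, 1.78 ± 0.35 and 1.13 ± 0.26 (adjusted p = 0.00106, 0.0011 and 0.00284), and by 1.28, 1.25 and 0.91 without the 4 libraries (adjusted p = 0.00531, 0.0122 and 0.0193).

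Cdt1 RNA had the largest interaction of diet and DFMO among the 49 genes. It read 17.4, 15.2, 7.54 and 27.5 CPM in controls, 63, 74.6, 81.2, 71.7 and 22.5 on the diet, 64.3, 69, 79.9, 68.2 and 77.2 with DFMO, and 42.5, 35, 40.7, 23.2 and 56.7 in the combination. Both single treatments were high apart from low-complexity diet mouse Proargdrop_5828, and the combination lay below all DFMO tumors, with its lowest tumor, Proargdrop_DFMO_5805, below control CD_5812. Cdt1 RNA rose by 2.07 ± 0.36 with DFMO (adjusted p = 0.000478), by 1.87 ± 0.36 on the diet (adjusted p = 0.0237) and by 1.21 ± 0.35 in the combination (adjusted p = 0.0105). With the low-complexity libraries removed, the DFMO change was 1.38 (adjusted p = 0.0112), while those of the diet and the combination no longer passed (1.39 and 0.50, adjusted p = 0.0966 and 0.279), each from 1 control. The interaction of diet and DFMO was -2.73 ± 0.48 (adjusted p = 0.00467) and -2.27 without those libraries (adjusted p = 0.00372), and it was past the threshold in 26 of 26 alternative fits. In all, 6 of 49 genes had a negative RNA interaction and 0 a positive one (3.5% and 2.44% of all genes), the others being Mcm5, Mcm6, Pola2, Rpa1 and Timeless. Without those libraries Pola2 and Timeless did not pass (-0.84 and -0.87, adjusted p = 0.127 and 0.135).

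Against DFMO alone, RNA of 2 genes fell in the combination, Mcm6 by 0.95 ± 0.25 (adjusted p = 0.0291) and Pold2 by 0.66 ± 0.18 (adjusted p = 0.0344), with 2.07% of all genes lower and 3.07% higher. Leaving out the low-complexity libraries, none of which belongs to either group, 18 genes fell (10.8% of all genes), with Mcm6 at -0.96 (adjusted p = 0.000536), Timeless at -0.94 (adjusted p = 0.000825) and Rpa1 at -0.69 (adjusted p = 0.00101). Without RNA of DFMO mice CD_DFMO_5823 and CD_DFMO_135 the count was 0. Calls over all genes in that fit are not given here, so this count is not read as a result about the replication genes. Between DFMO and the diet 5 genes were lower with DFMO in RNA (5.76% of all genes lower and 5.79% higher), Tipin, Pold3, Dut, Chaf1a and Gmnn. Tipin fell by 1.70 ± 0.28 (adjusted p = 0.00049) and Pold3 by 1.34 ± 0.25 (adjusted p = 0.00164), and without the 4 libraries by 1.29 and 1.05 (adjusted p = 1.29e-05 and 0.000121). Dut, Chaf1a and Gmnn were then at -0.76, -0.61 and -0.64 (adjusted p = 0.0096, 0.0294 and 0.0148).

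Efficiency here means footprints relative to RNA, tested as the interaction of assay and treatment over all 39 libraries. This fit takes footprints and RNA of the same mouse as independent, unless the mouse is named as a block. In the combination against the diet, efficiency rose for 3 of 49 genes and fell for 0 (0.709% and 0.11% of the 11847 genes tested), although footprints of 24 fell. The 3 were Tipin (1.45 ± 0.33, adjusted p = 0.0201), Pold3 (1.35 ± 0.32, adjusted p = 0.0235) and Orc6 (1.36 ± 0.33, adjusted p = 0.0283). The lowest values were -0.80 ± 0.51 for Gins3, -0.47 ± 0.50 for Pola1 and -0.36 ± 0.46 for Prim2, none of which passed. Without the low-complexity libraries, Tipin, Pold3 and Orc6 were at 0.94, 0.96 and 0.86 (adjusted p = 0.0109, 0.0106 and 0.0165), and Pold2 passed as well (0.65, adjusted p = 0.0418). With the mouse as a block over the 38 libraries of mice with both assays, 0 of 49 passed (Tipin 1.30, Pold3 1.21 and Orc6 1.21, adjusted p = 0.0642, 0.123 and 0.137). The share of all genes in that fit is not given here, so this count is not read as a result about the 49 genes. The ratio of footprint to RNA RPKM, leaving out the low-complexity libraries, is given for these 3 genes because they were called. It comes from the same libraries as the calls and is no separate support for them. That of Tipin was 0.102 to 0.117 in 4 diet tumors, 0.257 to 0.334 with DFMO and 0.225 to 0.322 in the combination. That of Orc6 was 0.0915 to 0.177 on the diet, 0.21 to 0.239 with DFMO and 0.227 to 0.34 in the combination, and that of Pold3 0.309 to 0.453, 0.807 to 0.952 and 0.585 to 1.43. All DFMO-treated tumors, CD_DFMO_5823 and CD_DFMO_135 included, lay above all diet tumors for each. The share of all genes with such a separation is not given here.

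For Tipin and Pold3, RNA fell and footprints had no called change, while for Orc6 the RNA fell against the diet (-1.08 ± 0.27, adjusted p = 0.00891, and -0.71 with adjusted p = 0.00323 without the 4 libraries) and footprints had no called change against the diet (0.22 ± 0.15, adjusted p = 0.274). Efficiency of Tipin and Pold3 also rose with DFMO relative to the diet (1.84 ± 0.33 and 1.45 ± 0.31, adjusted p = 0.00295 and 0.0173), and these 2 were the only genes among the 49 to do so (0.549% of all genes higher and 0.076% lower). They stayed past the threshold without the low-complexity libraries (1.35 and 1.09, adjusted p = 0.000718 and 0.00675). With the mouse as a block Tipin passed (1.66, adjusted p = 0.0231) and Pold3 did not (1.35, adjusted p = 0.0766). Between the combination and DFMO 0 of 49 genes changed in efficiency by edgeR, DESeq2 or limma, with 1 at an unadjusted p below 0.05 (371 of all genes), and 0% of all genes did.

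Against control, efficiency rose for 13 genes and fell for 3 in the combination (13.7% and 14% of all genes), and rose for 13 and fell for 5 with DFMO (15.1% and 16.3%). With mouse CD_5812 as the only control RNA once the low-complexity libraries were left out, Orc6 was at 1.64 and Tipin at 1.28 in the combination. P values of that fit rest on 1 control RNA library. By limma on log2 RPKM the split turned to 2 higher and 18 lower in the combination and 2 higher and 29 lower with DFMO. The shares of all genes by limma are not given here, so these counts are not read as results about the 49 genes. In the full set, the 3 with the largest rise in the combination were Tipin (1.86 ± 0.34), Lig1 (1.84 ± 0.55) and Chaf1b (1.73 ± 0.47) and those that fell were Cdt1 (-1.53 ± 0.37), Rpa1 (-1.49 ± 0.45) and Mcm5 (-0.98 ± 0.26), with adjusted p of 0.000454, 0.014, 0.007, 0.00322, 0.0136 and 0.00717. Of these 6 only Tipin passed without the low-complexity libraries. On the diet efficiency fell for Cdt1 and Mcm5 (3.75% of all genes lower and 1.01% higher), by 1.78 ± 0.37 and 1.00 ± 0.26 (adjusted p = 0.0104 and 0.0279), and without those libraries for Cdt1 only (-1.34, adjusted p = 0.0478). With the mouse as a block Cdt1 passed as well (-1.83, adjusted p = 0.0464) and Mcm5 did not (-1.09, adjusted p = 0.0658). The Cdt1 RPKM ratio, low-complexity libraries left out, was 4.16 in the single control tumor, 1.04 to 1.76 on the diet, 0.832 to 1.83 with DFMO and 1.5 to 2.54 in the combination. The interaction of diet and DFMO in efficiency passed for Cdt1 alone among the 49 genes (2.40 ± 0.51, adjusted p = 0.0279, 0.287% of all genes higher and 0.0675% lower). It stayed past the threshold, at 1.93, with the low-complexity libraries removed (adjusted p = 0.012), but not with the mouse as a block (2.49, adjusted p = 0.0688). No gene of the 49 passed when any 1 of mice CD_5696, Proargdrop_5705, Proargdrop_5784, Proargdrop_5785, CD_DFMO_5806, CD_DFMO_5823, CD_DFMO_135, Proargdrop_DFMO_5732 or Proargdrop_DFMO_5736 was left out, and 9 passed without low-complexity mouse Proargdrop_5828. Shares of all genes in these fits are not given here, so these counts are not read as results about the 49 genes.

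Genes next to these in the pathway moved likewise in footprints of the combination. Of 35 tested genes with other roles at the fork, out of a list of 37, 14 fell and 1 rose against control (15.5% of all genes lower and 16.7% higher), with a median of -0.35. The smallest p values belonged to Rnaseh2c (-1.24 ± 0.15, adjusted p = 7.15e-06) and Rnaseh2a (-0.60 ± 0.10, adjusted p = 0.00017), both subunits of the enzyme that removes ribonucleotides from DNA, and to Dna2, a flap nuclease (-0.98 ± 0.18, adjusted p = 0.000405). The gene that rose was Orc4, another ORC subunit (0.54 ± 0.19, adjusted p = 0.0351). Against the diet 16 of the 35 fell and 0 rose (14% and 14.8% of all genes). Among 12 genes of G2 and mitosis 6 fell against control, where 15.5% of all genes did, with a median of -0.49, such as the kinase genes Aurka (-0.80 ± 0.17, adjusted p = 0.00105) and Plk1 (-0.77 ± 0.20, adjusted p = 0.00523) and the survivin gene Birc5 (-0.58 ± 0.15, adjusted p = 0.00457), and 5 fell against the diet, where 14% of all genes did.

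Of 13 genes for E2F factors, their partners and the retinoblastoma family, 2 rose and 1 fell against control, with a median of 0.10, shares no higher than those of all genes (16.7% higher and 15.5% lower). Tfdp1, the dimer partner of E2F, rose by 0.43 ± 0.13 (adjusted p = 0.0123), Rb1 rose by 0.45 ± 0.16 (adjusted p = 0.0382) and the repressor gene E2f6 fell by 0.51 ± 0.18 (adjusted p = 0.0324). Against the diet E2f6 alone passed (-0.54 ± 0.17, adjusted p = 0.0225). Counts by promoter letters lay side by side: 9 of 20 genes with E2F letters and 9 of 19 without them fell in footprints of the combination against control, with medians of -0.42 and -0.37, and 11 of 20 and 9 of 19 fell against the diet. RNA counts against the diet were 10 of 20 and 9 of 19 lower, with medians of -0.81 and -0.67. In RNA of DFMO tumors against control, 7 rose and 5 fell of the 20 with E2F letters (median 0.33), and 0 rose and 5 fell of the 19 without (median -0.24), while in RNA of the combination against control 7 of each fell and 1 of the 20 rose (medians -0.19 and -0.59). These RNA values rest on controls of which 3 of 4 are low-complexity libraries, and the difference between both sets of genes was not tested.

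Codon make-up varied widely among the 49 genes. Codons ending in A made up 10.2% of Mcm2, the lowest share, and 39.8% of Orc6, the highest, with a median of 18.9% over the 49 genes and 17.8% over 11786 genes tested. The next highest were Rfc4 at 33.5%, Tipin at 32.7%, Pold3 at 28.2% and Orc2 at 28%. Of these, Rfc4 and Orc2 did not pass in efficiency of the combination against the diet (-0.12 ± 0.25 and 0.44 ± 0.25, adjusted p = 0.884 and 0.461). Against control, whose RNA is mostly low-complexity libraries, Rfc4 efficiency rose with DFMO (0.71 ± 0.26, adjusted p = 0.0329). It also rose in the combination (0.70 ± 0.26, adjusted p = 0.0375). Orc2 passed in neither (0.06 ± 0.26 and 0.21 ± 0.26, adjusted p = 0.883 and 0.577). Across the 49 genes this share correlated with the footprint change in the combination against control at Pearson's r = 0.447, and across all 11786 genes at r = 0.05. The number of codons correlated with the same change at r = -0.471 across the 49 genes and -0.049 across all. For proline and arginine, the amino acids left out of the diet, r was -0.114 and -0.21 across the 49 genes, whose median content was 5.02% proline and 6.05% arginine against 5.45% and 5.57% over all genes. These are descriptions across genes that share libraries, and genes are not independent replicates.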

How the data were processed

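Per the labels' protocols, tumors were lysed with cycloheximide, ribosome-protected fragments were made with RNase I and size-selected, and total RNA came from the same extracts. The submitters' processing notes name cutadapt, Bowtie2, HISAT2 and GRCm38, with versions not given in the sources used here. The authors deposited raw read counts for 20333 transcripts in 39 libraries, and a table of RPKM (counts per kilobase of coding sequence, scaled to the column total). The counts were tested with edgeR 4.0.16 (TMM scaling, filterByExpr, robust quasi-likelihood F test, R 4.3.3), with all groups of an assay in 1 fit. Efficiency (footprints relative to RNA) was tested in a single fit of the 39 libraries, scaled jointly, as an assay-by-treatment term. P values were adjusted by Benjamini-Hochberg over all genes tested, with a threshold of 0.05. In footprints and in RNA they measure the spread between mice. The main efficiency fit took footprints and RNA of the same mouse as independent libraries. Its p values therefore do not measure the spread of the ratio between mice. CPM values are TMM-adjusted, and departures use log2 CPM with a prior count of 2. Alternatives were DESeq2 1.42.0, limma 3.58.1 on log2(RPKM + 0.5), RLE scaling, no filter, only the groups compared, thinning to 2137838 counts, leaving out each mouse, and a block by mouse, since footprints and RNA with the same number came from the same animal. RNA libraries with under 14000 transcripts detected were left out as an alternative chosen after seeing the data, as were the libraries unlike their own footprints, the thinning and TMM within each assay.

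The 49 genes, the lists of other replication, E2F and mitosis genes and the cell type markers were chosen with earlier results of these data known. Any of the 49 could be named. The rule gave values in every tumor to the MCM genes, Cdc6, Cdt1, Gmnn, Pcna, Slbp and Uhrf1, to up to 5 called genes with the smallest p each way in each comparison, and to the 3 largest efficiency changes each way against the diet. Some of these are given by their changes only, and values of other genes were added after they were seen. Fits were tested on simulated data. RNA of control mouse CD_5840 was not analysed here.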

Additional observations from a re-analysis of the deposited data

Results flagged for a closer look

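A tumor lying far from the other 4 of its group (3 in control RNA) was found in 15 of 180 groups of values examined, and chance alone gives about 1 in 20. In RNA, 7 of the 15 came from diet mouse Proargdrop_5828, a low-complexity library. It was highest in its group for Chaf1a at 176 CPM (others 88.4 to 106), Dut at 1950 (433 to 768), Gmnn at 219 (79.8 to 115), Rfc3 at 264 (99 to 137) and Tipin at 473 (148 to 219), and lowest for Mcm2 at 53.4 (127 to 154) and Rpa1 at 11.6 (45.5 to 47.2). Also in RNA, DFMO mouse CD_DFMO_5802 had 193 CPM of Chaf1b (others 121 to 141) and control mouse CD_5778 had 49.9 of Pold3 (31.4 to 32.7). In footprints, diet mouse Proargdrop_5784 was highest for Chaf1b at 102 CPM (75.7 to 82.9) and Gmnn at 62.9 (49 to 51.3), and diet mouse Proargdrop_5702 lowest for Pcna at 526 (590 to 615). Mcm6 footprints were highest in control mouse CD_5840 at 253 CPM (218 to 227) and lowest in DFMO mouse CD_DFMO_5802 at 225 (266 to 269). Pole footprints of combination mouse Proargdrop_DFMO_5732 were at 119 CPM (55.4 to 71.4).

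The effect of DFMO differed between the diets by the interaction term of edgeR for 6 genes in RNA. These were Cdt1 (-2.73, adjusted p = 0.00467), Mcm5 (-1.60, adjusted p = 0.00855), Mcm6 (-1.81, adjusted p = 0.01), Pola2 (-1.32, adjusted p = 0.0197), Timeless (-1.56, adjusted p = 0.0375) and Rpa1 (-2.09, adjusted p = 0.0464). Without the 4 low-complexity libraries Cdt1, Mcm5, Mcm6 and Rpa1 passed (-2.27, -1.07, -1.22 and -1.14). In efficiency the interaction of Cdt1 was 2.40 (adjusted p = 0.0279), and 1.93 without those libraries (adjusted p = 0.012).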

How the results depend on the processing

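Of 2589 values of single genes under alternative settings, 2268 kept their direction and their side of the threshold, 318 lost the call and 3 turned direction, all under limma on log2 RPKM: RNA of Mcm7 (0.13) and Pcna (0.55) and efficiency of Pcna (-0.35), each with DFMO against control. Counts of called genes among the 49 that moved by over 1.5 times follow, without the share of all genes beside them. They are not read as results about these genes, and the cause was not tested. In footprints, DFMO against control went from 3 to 5 by DESeq2, 9 by limma and 5 with only the groups compared. The diet went from 0 to 1 by DESeq2 and with only the groups compared, DFMO against the diet from 1 to 0 by limma and 2 with only the groups compared, and thinning, which lowers depth, gave 2 for the combination against DFMO and 13 against the diet. In RNA, the diet gave 6 under RLE scaling, 1 without a filter, 12 by DESeq2, 1 by limma and 0 with only the groups compared. DESeq2 gave 6 for the combination against DFMO, 8 for DFMO against the diet and 15 for the interaction, limma gave 8 for the combination against the diet and 13 for the interaction, and only the groups compared gave 16 for the combination against DFMO. Without the low-complexity RNA libraries DFMO gave 9, the diet 0, the combination against DFMO 18 and DFMO against the diet 10. Without RNA unlike its own footprints these were 11, 0, 0 and 2, with 3 for the interaction. Without both kinds they were 6, 0, 12 and 3, with 9 for the combination against control and 1 for the interaction.

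In efficiency, the diet gave 5 under RLE scaling, 9 by DESeq2, 14 by limma and 4 with TMM within each assay, and the interaction 2, 7, 5 and 2. The combination against the diet gave 5 by DESeq2, and limma gave 31 for DFMO and 1 for DFMO against the diet. Without the low-complexity libraries DFMO gave 8, the diet 1 and the combination against control 2, without both kinds 4, 0 and 2, and without RNA unlike its own footprints DFMO against the diet gave 1 and the interaction 0. With the replicate block by mouse, the diet gave 1, the combination against the diet 0, DFMO against the diet 1 and the interaction 0, while the other comparisons stayed within 1.5 times (12 for DFMO, 13 for the combination against control and 0 against DFMO).

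Leaving out each mouse in turn gave, in footprints, 1 to 9 calls for DFMO, 0 to 1 for the diet, 17 to 34 for the combination against control, 0 to 19 against DFMO, 13 to 38 against the diet, 0 to 4 for DFMO against the diet and 0 to 5 for the interaction. In RNA these ranges were 15 to 23, 0 to 18, 19 to 23, 0 to 6, 16 to 27, 2 to 10 and 4 to 14, and in efficiency 11 to 22, 0 to 12, 9 to 20, 0 to 0, 0 to 4, 1 to 3 and 0 to 9. In footprints the highest counts came without mouse Proargdrop_DFMO_5732, except for the diet (Proargdrop_5702), and in RNA and efficiency without Proargdrop_5828 for the diet and the interaction. Control footprints were the shallowest, and genes with few counts such as Orc1 and Gins3 are measured least precisely.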
